A study of Mus musculus with 20 samples.

Results

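Cells selected for CD45 from B;p38α melanomas were compared with complete B;p38α tumors, gene by gene, on 6 of the 20 microarrays of a study of mouse melanoma. The samples were taken by their titles, 3 of the B;p38α CD45+ (immune) population and 3 of the B;p38α complete tumor. Each array gave log2 expression values for 19504 named genes, 1 row per gene symbol, and a difference is the CD45+ mean minus the complete tumor mean in log2 units. Both groups came from Tyr::CreERT2;BrafCA/CA;p38αlox/lox mice, in which a tamoxifen-dependent Cre recombinase under the tyrosinase promoter acts in melanocytes. Per the labels' protocols, 4-hydroxytamoxifen was put on the skin (5 mg/ml in acetone) on postnatal days 2.5 and 3.5, which switched on BrafV600E and removed p38α. The pups were then irradiated once with UVB (6.24 kJ/m²), and tumors were taken at endpoint size, at an age the labels do not give. The deletion was therefore aimed at melanocytes and not at the leukocytes that the CD45+ selection is meant to collect. The selected cells came from tumors taken apart by mechanical and enzymatic means and passed over CD45 magnetic beads, a step the labels describe only for separated populations. Selection and dissociation cannot be told apart in this comparison. For reference, values are also given for the cells left after selection from the same genotype (B;p38α CD45-, 3 arrays), and for B CD45+ cells (3 arrays) and B complete tumors (5 arrays), whose Tyr::CreERT2;BrafCA/CA mice had the same treatment and kept p38α. The labels call all samples biological replicates without naming animals, so that the p-values rest on the spread among the samples, which may in part be technical.

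CD45, encoded by Ptprc, is a tyrosine phosphatase on the surface of all nucleated blood cells, and it is the standard handle for pulling leukocytes out of a solid tumor. In melanoma the leukocytes are largely macrophages and monocytes, with neutrophils, dendritic cells, mast cells and lymphocytes, embedded among tumor cells, fibroblasts and vessels. A complete tumor piece can keep some surrounding skin as well, and with it fat, hair follicles and the thin muscle under mouse skin. Cells that are detached from tissue while alive are known to switch on immediate early genes such as Fos and Jun, and macrophages answer stimulation with cytokine genes such as Tnf and Il1b.

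The 6 arrays had medians from 6.92 to 7.01 and interquartile ranges from 3.75 to 3.82 log2 units. Across genes, CD45+ replicates 1 and 2 correlated at 0.991, and both correlated with replicate 3 at 0.970. Complete tumors correlated with each other at 0.968 to 0.979, and with CD45+ samples at 0.934 to 0.959. Averaged over 3 Y-linked genes, the level was 2.75 to 3.85 in all 6 arrays, 8.81 in CD45- replicate 2, 8.67 in B CD45+ replicate 1, and 8.93 and 9.29 in B complete replicates 1 and 4. Mapk14, the deleted gene, had 10.19, 9.998 and 10.43 in CD45+ cells, against 9.95, 9.57 and 9.86 in complete tumors (difference 0.41, SE 0.20, limma adjusted p = 0.229). The labels do not say whether the Mapk14 probes fall inside the floxed exons, and Mapk14 is meant to be lost in melanocytes only, so its level does not check the labels. Ptprc, the selected marker, had 11.25, 11.20 and 11.95 in CD45+ cells, 6.80, 8.37 and 8.63 in CD45- cells, and 9.41, 10.30 and 9.79 in complete tumors. All 3 CD45+ arrays lay above all complete tumors (difference 1.63, SE 0.29, limma adjusted p = 0.0156), although the call was lost without complete tumor replicate 3.

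Over all genes, 1133 were higher (5.81% of those tested) and 697 lower (3.57%) in CD45+ cells at a limma adjusted p under 0.05. The counts of called list members given below are read against these shares. The groups did not overlap in 6350 genes (32.6%), 3202 of them higher and 3148 lower in CD45+ cells, and the median difference of all genes was 0.00. The number of calls depended on single arrays. It was 512 higher and 125 lower without complete tumor replicate 3, 646 and 268 without complete tumor replicate 2, and 586 and 170 without CD45+ replicate 1. Leaving out CD45+ replicate 2 gave 591 and 149, leaving out CD45+ replicate 3 gave 884 and 443, and leaving out complete tumor replicate 1 gave 1120 and 686. Averaging the closely alike CD45+ replicates 1 and 2 to a single sample gave 596 and 165.

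**Figure D1:**
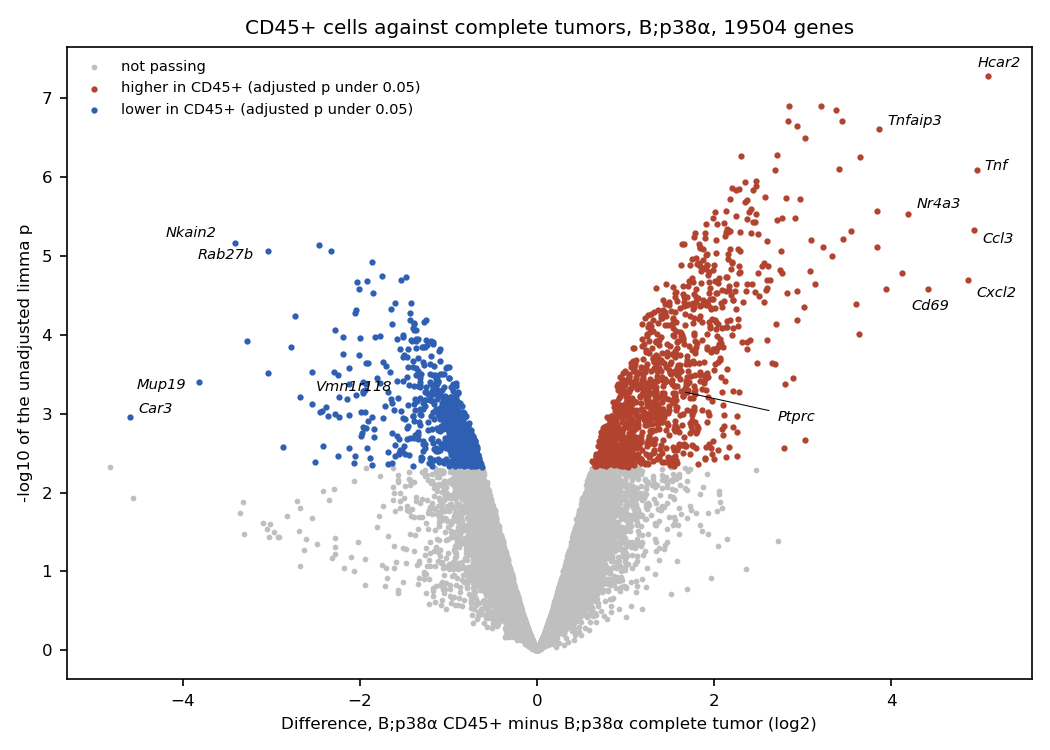
Difference between B;p38α CD45+ cells and B;p38α complete tumors (x axis, log2, 3 arrays each) against the -log10 of the unadjusted limma p (y axis) for 19504 genes, with 1133 higher genes in red and 697 lower genes in blue. Hcar2, Tnf, Ccl3 and Cxcl2 lie at differences near 5 and Car3 at -4.59, while Ptprc lies at 1.63.

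The 15 largest rises, picked among called genes whose groups did not overlap, began with Hcar2, Tnf, Ccl3, Cxcl2 and Cd69. Hcar2, a receptor for hydroxy-carboxylic acids on macrophages and neutrophils, had 10.48, 10.40 and 10.07 in CD45+ cells, 6.35, 7.29 and 7.15 in CD45- cells, and 4.68, 5.63 and 5.36 in complete tumors. CD45+ cells and complete tumors were separated by more than 4 log2 units, and their difference of 5.09 had an SE of 0.27 (limma adjusted p = 0.000597). Whether a low level, such as that of Hcar2 in complete tumors, lay above background was not tested, so no linear fold is given. Tnf, the tumor necrosis factor gene, had 9.91, 9.83 and 9.58 in CD45+ cells, against 3.89, 5.41 and 5.13 in complete tumors (difference 4.96, SE 0.37, limma adjusted p = 0.00107). The chemokine Ccl3, which recruits monocytes and T cells, had 11.11, 11.28 and 12.47 in CD45+ cells, against 5.79, 7.15 and 7.12 in complete tumors (difference 4.93, SE 0.46). Groups that did not overlap were a condition of the choice, met by 32.6% of all genes. The neutrophil chemoattractant Cxcl2 had 10.42, 10.30 and 10.85 in CD45+ cells, against 4.43, 5.55 and 6.98 in complete tumors (difference 4.87, SE 0.55). Cd69, an early activation marker of lymphocytes and other leukocytes, had 9.14, 9.23 and 9.31 in CD45+ cells, against 4.83, 6.02 and 3.59 in complete tumors (difference 4.41, SE 0.52).

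The other 10 were the nuclear receptor Nr4a3 (4.19), Gm6377 (4.12), the G protein brake Rgs1 (3.94), and 2 regulators of NF-κB signaling, Tnfaip3 (3.87) and Nfkbid (3.84). The chemerin-binding receptor Ccrl2 (3.83), the neutrophil calcium-binding protein S100a8 (3.64), the prostaglandin synthase Ptgs2 (3.64), the cytokine Osm (3.61) and the inducible chaperone Hspa1b (3.55) completed them. Limma adjusted p for these 15 ran from 0.000597 to 0.00646. All 15 kept their call without any single array and in each other alternative setting checked gene by gene. The comparison with CD45- cells uses the same CD45+ arrays by which these 15 were picked, so it is no separate support. In 14 of 15 the CD45- cells were lower than the CD45+ cells at a limma adjusted p under 0.05, against 3.64% of all genes. Hspa1b was the exception, with 10.97, 11.15 and 11.54 in CD45+ cells, against 10.003, 8.25 and 10.36 in CD45- cells (CD45+ minus CD45- 1.68, limma adjusted p = 0.142).

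**Figure D2:**
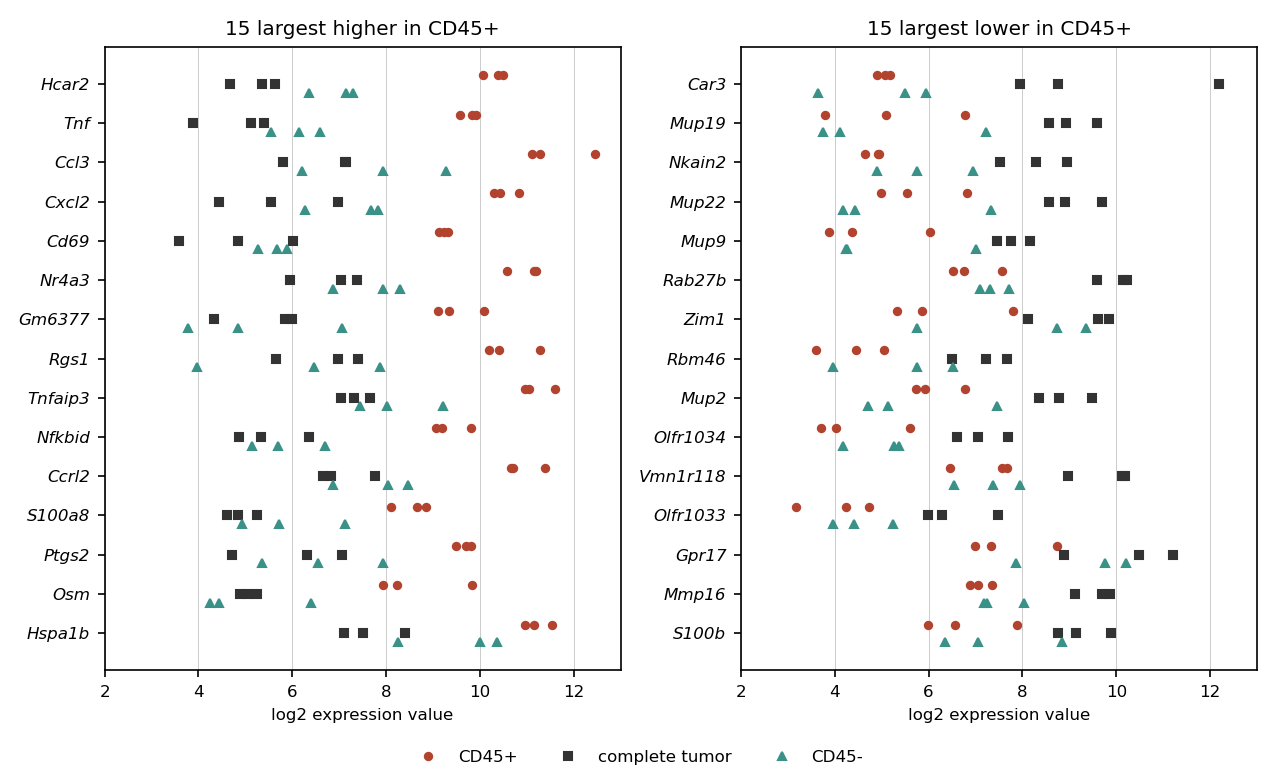
Log2 expression value (x axis) on each array for the 15 largest higher genes (left) and the 15 largest lower genes (right), with B;p38α CD45+ cells as red circles, B;p38α CD45- cells as green triangles and B;p38α complete tumors as black squares. The 30 genes were picked among called genes whose CD45+ and complete tumor arrays do not overlap. For most lower genes the CD45- cells lie nearer to the CD45+ cells than to the complete tumors. The genes were picked by the same CD45+ and complete tumor arrays, so this is no separate support.

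Genes that define leukocytes in general rose together. All 19 measured general leukocyte genes had positive differences (median 1.73) and 16 passed the test, against 5.81% of all genes. Laptm5, a lysosomal membrane protein of blood cells, had 12.62, 12.49 and 12.94 in CD45+ cells, against 10.38, 10.10 and 10.16 in complete tumors (difference 2.47, SE 0.19, limma adjusted p = 0.00128). The lymphoid transcription factor Ikzf1 differed by 2.43 (SE 0.20), the actin-binding Hcls1 by 2.20 (SE 0.23) and Cytip by 2.19 (SE 0.26). Their groups did not overlap, as for 32.6% of all genes. Was (1.55, limma adjusted p = 0.0834) and Cd48 (1.22, limma adjusted p = 0.0629) did not pass. The mean level of the list was 9.97, 9.96 and 10.71 in CD45+ cells, between 6.09 and 7.94 in CD45- cells, and 8.42, 8.63 and 8.40 in complete tumors. In such bulk samples, fewer cells of a type and less RNA per cell cannot be told apart. The count was 10 of 19, with a median of 1.64, when complete tumor replicate 3 was left out.

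Among genes that mark macrophages as such, 15 of 19 rose and 0 fell (median 1.52). Spi1, the myeloid master transcription factor PU.1, had 12.25, 12.19 and 12.41 in CD45+ cells, against 9.99, 9.99 and 9.94 in complete tumors. The groups differed by 2.31 (SE 0.16, limma adjusted p = 0.000893), while the replicates of each group were within 0.3 of each other. The fractalkine receptor Cx3cr1 rose by 2.41 (SE 0.21), the lipid receptor Trem2 by 2.05 (SE 0.31) and the endotoxin co-receptor Cd14 by 2.00 (SE 0.33), the last without a call when complete tumor replicate 3 was left out. Adgre1, the surface receptor widely used to mark mouse macrophages, had 10.24, 10.19 and 11.55 in CD45+ cells, against 8.62, 9.76 and 9.05 in complete tumors, and did not pass (1.52, SE 0.42, limma adjusted p = 0.0617). Aif1 did not pass either (1.17, limma adjusted p = 0.112). Fewer of the list passed without complete tumor replicate 3 (8) and without complete tumor replicate 1 (10). Of the 17 measured C-type lectin, Toll-like and Fc receptor genes, which let phagocytes sense microbes and antibodies, all had positive differences (median 1.57) and 7 passed. Clec4e (2.60, SE 0.25), Tlr9 (2.41, SE 0.35), Clec4n (2.15, SE 0.20) and Tlr13 (1.96, SE 0.30) rose most. Leaving out complete tumor replicate 3 left 4 of the 17.

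Markers of resident and alternatively activated macrophages varied widely among the replicates of a group. The mean level of the 18 measured genes was 8.84, 8.97 and 10.67 in CD45+ cells, against 7.01, 8.68 and 8.79 in complete tumors. CD45+ replicate 3 stood above the other CD45+ arrays, and complete tumor replicate 1 below the other complete tumors. Only 3 of the 18 passed, although all had positive differences (median 1.34, and 0.73 without complete tumor replicate 1). These were the transcription factor Maf (2.60, SE 0.30), the scavenger receptor Stab1 (2.47, SE 0.20) and Gas6, the bridging ligand of the TAM receptors (1.84, SE 0.24), all with calls that held without any single array. F13a1 (2.07, SE 0.66) and the folate receptor Folr2 (1.87, SE 0.72) did not pass. Retnla, singled out after its values were seen, had 6.78, 7.09 and 11.98 in CD45+ cells, against 5.26, 9.94 and 10.01 in complete tumors (difference 0.21, SE 1.63, limma adjusted p = 0.953). Among monocyte genes, 5 of 13 rose and 1 fell (median 0.92), led by the chitinase-like Chil3 (2.65, SE 0.42) and Nr4a1 (2.18, SE 0.18). The inflammatory monocyte markers Ccr2 (1.13, limma adjusted p = 0.178) and Ly6c2 (1.04, limma adjusted p = 0.176) did not pass. Of the 13 monocyte genes, 2 passed as higher without complete tumor replicates 1 or 3 in turn, and 3 without complete tumor replicate 2 or CD45+ replicates 2 or 3. The 1 lower call was seen again only without CD45+ replicate 3.

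Inflammatory macrophage genes had a larger median difference, 2.10, than any of the lists of cell identity, and 14 of 18 passed. After Tnf, Ptgs2 and Osm came Nlrp3, a sensor of the inflammasome, with 8.78, 8.95 and 9.46 in CD45+ cells, against 5.54, 5.61 and 5.70 in complete tumors (difference 3.45, SE 0.21, limma adjusted p = 0.000597). Il1b, whose product the inflammasome processes, had 10.79, 10.84 and 11.08 in CD45+ cells, against 8.03, 8.10 and 6.89 in complete tumors (difference 3.23, SE 0.32, limma adjusted p = 0.00206). All arrays of the groups were apart for both genes, as for 32.6% of all genes. Il6 (2.15, SE 0.87, limma adjusted p = 0.167) and the interferon-γ-induced chemokine Cxcl9 (-1.13, SE 0.49, limma adjusted p = 0.190) did not pass. The mean level of the list was 8.40 ± 0.36 in CD45+ cells and 6.16 ± 0.15 in complete tumors (SD, n = 3 each).

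Of the 19 measured chemokine genes, 7 rose and 0 fell (median 1.45). Ccl4, another attractant of monocytes and T cells, followed Ccl3 and Cxcl2 with a difference of 3.33 (SE 0.34), and Cxcl1 had 1.92 (SE 0.40), which lost its call without CD45+ replicates 1 or 2 or complete tumor replicate 2. The monocyte attractants Ccl12 (1.92, limma adjusted p = 0.0568) and Ccl9 (1.74, limma adjusted p = 0.101) did not pass.

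Neutrophil genes rose in 11 of 18 cases (median 1.92). S100a8 had 8.66, 8.86 and 8.11 in CD45+ cells, against 4.62, 5.25 and 4.83 in complete tumors (difference 3.64, SE 0.26, limma adjusted p = 0.000893). Its partner S100a9 (3.10, SE 0.30), the decoy receptor Il1r2 (2.91, SE 0.26) and the G-CSF receptor Csf3r (2.38, SE 0.20) rose with it. The granule protein Ngp passed (2.78, SE 0.66, limma adjusted p = 0.0378), but not without CD45+ replicate 1 or any single complete tumor. Retnlg (1.01, SE 0.65, limma adjusted p = 0.375) did not pass.

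MHC class II molecules present antigen to CD4 T cells, and class I molecules to CD8 T cells. Of 11 measured genes of class II presentation, 9 rose (median 1.64). H2-Ab1, a chain of the class II molecule, had 12.35, 12.33 and 11.80 in CD45+ cells, against 9.79, 10.26 and 9.58 in complete tumors (difference 2.28, SE 0.25, limma adjusted p = 0.00253). The peptide loader H2-DMa (1.95, SE 0.23), its modulator H2-Ob (1.67, SE 0.21) and the transactivator Ciita (1.71, SE 0.20) also rose. H2-Eb1 did not pass (0.32, SE 0.80, limma adjusted p = 0.840). Without CD45+ replicate 2 the list had 6 calls. For MHC class I presentation 3 of 13 passed (median 0.82), namely Psmb8 (1.26), Tapbp (1.24) and Tap2 (0.82). None of these 3 passed without complete tumor replicate 3, and 1 passed without complete tumor replicate 2 or any single CD45+ array. Of 20 dendritic cell genes 10 rose (median 1.57), led by Wdfy4, needed for cross-presentation (2.09, SE 0.25), the lectin Mgl2 (2.08, SE 0.35) and the integrin Itgax (2.05, SE 0.23).

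The lists of T, NK and B cell genes had medians from 0.56 to 0.87. In the T cell list 7 of 17 rose (median 0.82). Cd3e, a signaling chain of the T cell receptor complex, had 7.40, 7.27 and 8.004 in CD45+ cells, against 5.84, 5.70 and 4.29 in complete tumors (difference 2.28, SE 0.41, limma adjusted p = 0.0157), and kept its call without any single array. Cd28 (1.78), Cd3g (1.67) and Cd4 (1.27) passed with calls lost without 2 to 6 of the arrays in turn, and Cd8a (0.94, limma adjusted p = 0.105) did not pass. The T cell list had 2 calls without complete tumor replicate 3, 3 without CD45+ replicate 2, and 4 without complete tumor replicates 1 or 2 or CD45+ replicate 1. Checkpoint and regulatory T cell genes had 6 of 14 rises (median 0.73). Havcr2, which encodes TIM-3 and is also found on myeloid cells, had 7.86, 7.63 and 8.31 in CD45+ cells, against 5.50, 5.67 and 5.53 in complete tumors (difference 2.37, SE 0.21, limma adjusted p = 0.00166). Cd274, which encodes PD-L1, rose by 1.77 (SE 0.22), and Tigit (1.01) and Pdcd1, which encodes PD-1 (0.96), passed by smaller differences. Ctla4 did not pass (1.73, SE 0.45, limma adjusted p = 0.0522). Between 2 and 3 of this list passed without complete tumor replicates 2 or 3 or any single CD45+ array.

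The NK and cytotoxic list had 5 of 16 rises (median 0.87), and counts of rises here are read against 5.81% of all genes. Ifng, the interferon-γ gene, had 6.36, 6.61 and 6.46 in CD45+ cells, against 4.31, 4.49 and 4.61 in complete tumors (difference 2.01, SE 0.18, limma adjusted p = 0.00165). Gzmb (1.39), Eomes (1.38) and Tbx21 (1.18) passed, and Prf1 (1.02, limma adjusted p = 0.0953) and Nkg7 (0.94, limma adjusted p = 0.180) did not. Without complete tumor replicate 3 or CD45+ replicate 1, 2 of the 16 passed, and 3 passed without complete tumor replicate 2 or CD45+ replicates 2 or 3. Of 14 B and plasma cell genes 2 rose, the B cell receptor modulator Cd22 (2.18, SE 0.22) and the adaptor Bank1 (1.99, SE 0.45), and 1 passed without complete tumor replicate 3 or CD45+ replicates 2 or 3. Mast cell and basophil genes had 3 rises of 14 (median 0.69, and 0.11 without CD45+ replicate 3). These were the stem cell factor receptor Kit (2.13, SE 0.25), the histamine-forming enzyme Hdc (2.21, SE 0.47) and the prostaglandin synthase Hpgds (1.89, SE 0.33). Cpa3, a mast cell protease, had 8.87, 8.62 and 11.12 in CD45+ cells, against 7.56, 8.67 and 10.36 in complete tumors, so that the replicates of either group spanned more than the difference between them (0.67, SE 0.81, limma adjusted p = 0.657). None of the 6 eosinophil genes passed, where 1830 of all genes (9.38%) did.

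Immediate early and dissociation stress genes had the largest median difference of the 40 lists, 2.26, and 23 of the 25 rose. The inflammatory macrophage list came first instead without complete tumor replicate 1, and without complete tumor replicate 2, where its median was 2.32 against 2.24. Nr4a3 had 11.20, 11.16 and 10.59 in CD45+ cells, against 7.39, 5.95 and 7.03 in complete tumors. Atf3, a stress-induced repressor, had 11.21, 11.19 and 11.64 in CD45+ cells, against 7.59, 7.97 and 9.06 in complete tumors (difference 3.14, SE 0.36, limma adjusted p = 0.00316). Gadd45b, which acts on the kinases upstream of p38 and JNK, had 9.93, 10.15 and 10.09 in CD45+ cells, against 7.24, 6.71 and 7.14 in complete tumors (difference 3.03, SE 0.20, limma adjusted p = 0.000683). The groups did not overlap for any of these genes, as for 32.6% of all genes. Fosb passed (3.03, SE 0.68), as did Fos, with 11.54, 11.58 and 11.99 in CD45+ cells, against 8.30, 9.72 and 10.30 in complete tumors (2.26, SE 0.46, limma adjusted p = 0.0226). The calls of Fos and Fosb were lost without complete tumor replicate 2 or any single CD45+ array. Nr4a2 (1.52, limma adjusted p = 0.0501) and Egr3 (0.99, limma adjusted p = 0.143) did not pass. The mean level of the list was 10.40, 10.43 and 10.51 in CD45+ cells, 9.56, 8.998 and 9.80 in CD45- cells, and 7.98, 8.20 and 8.55 in complete tumors. The list thus stood higher than in complete tumors in both dissociated populations, and its part in the rise of the cytokine and chemokine genes was not tested.

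Heat shock genes rose in 5 of 10 cases (median 0.77). The paired inducible genes Hspa1b (3.55, SE 0.33) and Hspa1a (3.46, SE 0.34) are near-identical copies that probes may not tell apart. Hspa1a had 11.52, 11.61 and 12.21 in CD45+ cells, 10.74, 8.94 and 10.91 in CD45- cells, and 7.75, 8.997 and 8.22 in complete tumors. The co-chaperones Dnajb1 (1.26, SE 0.17) and Bag3 (1.23, SE 0.22) passed, and Hsph1 did not (0.56, limma adjusted p = 0.0885). Of the 10, 3 passed without complete tumor replicate 2 or CD45+ replicates 1 or 2.

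The promoter windows of 4 of these genes are shown because their 250 bases before the start of transcription hold a motif known to be read by NF-κB, CREB or serum response factor. They come from RefSeq's mouse table (GRCm38.p6), they were picked for the motif after the values were seen, and each is written 5′ to 3′ on the gene's own strand with the motif in capitals.
Cxcl2, chr5:90903649-90903898, plus strand, NF-κB motif at 97 and 78 bases before the start: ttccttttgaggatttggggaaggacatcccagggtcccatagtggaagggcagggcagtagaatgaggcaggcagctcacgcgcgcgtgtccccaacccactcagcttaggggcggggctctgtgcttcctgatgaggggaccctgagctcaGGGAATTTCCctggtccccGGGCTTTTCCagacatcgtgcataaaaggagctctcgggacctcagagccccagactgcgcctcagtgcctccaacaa
Tnfaip3, chr10:19015411-19015660, minus strand, NF-κB motif in reverse at 12 bases before the start: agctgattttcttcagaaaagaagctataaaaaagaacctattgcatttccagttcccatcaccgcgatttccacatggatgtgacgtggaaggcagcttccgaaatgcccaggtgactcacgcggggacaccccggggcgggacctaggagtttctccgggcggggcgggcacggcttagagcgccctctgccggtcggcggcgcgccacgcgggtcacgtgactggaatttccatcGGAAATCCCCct
Dusp1, chr17:26508473-26508722, minus strand, cyclic AMP response element at 143 bases before the start: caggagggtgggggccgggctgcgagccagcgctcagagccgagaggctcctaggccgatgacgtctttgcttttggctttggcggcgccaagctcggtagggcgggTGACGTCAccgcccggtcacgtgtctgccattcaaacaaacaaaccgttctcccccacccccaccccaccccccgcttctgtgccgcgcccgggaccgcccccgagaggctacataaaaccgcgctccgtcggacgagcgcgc
Zfp36, chr7:28379229-28379478, minus strand, serum response element at 58 bases before the start: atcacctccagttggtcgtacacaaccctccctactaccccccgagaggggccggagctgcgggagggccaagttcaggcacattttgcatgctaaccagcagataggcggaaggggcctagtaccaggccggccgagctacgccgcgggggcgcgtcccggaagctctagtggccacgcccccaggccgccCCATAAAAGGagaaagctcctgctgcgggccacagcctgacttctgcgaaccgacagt

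Tnfaip3, which encodes the NF-κB inhibitor A20, had 11.05, 10.96 and 11.61 in CD45+ cells, against 7.31, 7.04 and 7.67 in complete tumors. Dusp1, a phosphatase that switches off p38 and JNK, had 12.68, 12.68 and 13.25 in CD45+ cells, against 8.81, 10.12 and 10.998 in complete tumors (difference 2.89, SE 0.49, limma adjusted p = 0.0130). Zfp36, whose product tristetraprolin destabilizes Tnf messenger RNA, had 11.43, 11.43 and 12.04 in CD45+ cells, against 8.15, 8.47 and 9.46 in complete tumors (difference 2.94, SE 0.35, limma adjusted p = 0.00343). All 4 genes were apart between the groups, as were 32.6% of all genes. Both strands of the 250 bases were searched for TGACGTCA (the cyclic AMP response element), TGANTCA (AP-1), the serum response element and the NF-κB motif. Of the 15 largest rises, 11 had a window, and NF-κB matches were found in 2 of them, Cxcl2 and Tnfaip3, against 1.62% of the 15690 measured genes with a window. In the inflammatory macrophage list 3 of 14 genes matched NF-κB (Il1rn, Il6 and Marco) and 6 matched AP-1, against 7.37% of all genes for AP-1. In the immediate early list 3 of 21 matched the cyclic AMP response element (Btg2, Dusp1 and Maff), against 2.27%, and 1, Zfp36, matched the serum response element, against 1.54%. None of the 21 matched NF-κB or AP-1, none of the 14 inflammatory genes matched the cyclic AMP or serum response element, and none of the 15 general leukocyte genes with a window matched any motif but AP-1 (1, Hcls1). Among the 11 largest rises with a window, 1 matched the cyclic AMP response element, 1 AP-1 and 0 the serum response element. A match is a stretch of letters and no proof of binding, and these counts carry no test.

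Interferon-stimulated genes are switched on by type I and type II interferons. Counts of rises in the lists that follow are read against 5.81% of all genes, and counts of falls against 3.57%. Of 22 interferon-stimulated genes 5 rose (median 0.93), including the antiviral Rsad2 (2.26, SE 0.55), Oas3 (1.26, SE 0.24) and Oasl2 (1.20, SE 0.21), and Mx1 (1.70) and Irf7 (1.68) did not pass. None of this list passed without complete tumor replicate 3, 2 passed without any single CD45+ array, 3 without complete tumor replicate 1 and 9 without complete tumor replicate 2. Lysosome genes had 4 rises of 13 (median 0.44), with progranulin, Grn, at 1.56 (SE 0.24, limma adjusted p = 0.00929). The list had 1 call without complete tumor replicates 2 or 3 or CD45+ replicates 1 or 2. Of 18 hypoxia and glycolysis genes 3 rose (median 0.54), led by hexokinase 2, Hk2, with 7.99, 8.12 and 8.39 in CD45+ cells, against 6.05, 6.05 and 6.57 in complete tumors (1.95, SE 0.21, limma adjusted p = 0.00274). Without CD45+ replicate 1, 1 hypoxia gene passed, and without CD45+ replicate 2 it was 2. Genes of proliferation and respiration stayed near the median of all genes. None of 21 mitosis genes (median -0.01), 1 of 23 DNA replication genes (-0.10, E2f1 at 1.01) and none of 19 oxidative phosphorylation genes (-0.14) passed as higher, and none of the 3 lists had a lower call. The E2f1 call was seen in only 1 of the 6 fits that left out an array, that without complete tumor replicate 2, where 2 DNA replication genes passed. Leaving out complete tumor replicate 1 gave 3 lower calls in the oxidative phosphorylation list and 1 in the DNA replication list. Complete tumor replicate 1 had the lowest mitosis level of its group, 7.51 against 8.999 and 8.45, and the median of that list was -0.44 without it and 0.37 without complete tumor replicate 2.

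Kinases that connect stress to inflammation were examined because p38α is the gene deleted from these melanocytes. Of 19 measured p38 pathway genes (median 0.40) 5 rose and 0 fell, against 5.81% and 3.57% of all genes. The phosphatase Dusp10, an off switch of p38 and JNK, had 9.82, 9.98 and 9.25 in CD45+ cells, 10.06, 9.57 and 9.40 in CD45- cells, and 7.60, 8.60 and 7.92 in complete tumors (CD45+ minus complete 1.64, SE 0.30, limma adjusted p = 0.0167). The upstream kinase Map3k5 (1.18, SE 0.23), the substrate kinases Mapkapk3 (0.98, SE 0.19) and Mknk1 (0.91, SE 0.21) also passed, and Mapkapk2 (0.61, limma adjusted p = 0.0861) did not. None of the list passed without complete tumor replicate 3 or without CD45+ replicates 1 or 2 in turn, 2 passed without complete tumor replicate 2 and 3 without CD45+ replicate 3. Among 15 ERK output genes (median 0.44) 2 rose, where 5.81% of all genes did. These were the nuclear ERK phosphatase Dusp5 (1.88, SE 0.20, limma adjusted p = 0.0026) and the ETS factor Etv5 (1.13, SE 0.19). Without complete tumor replicate 3 or CD45+ replicates 1 or 2 there was 1, and without CD45+ replicate 3 there were 4.

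Endothelial cells line blood vessels and carry no CD45. Of 20 endothelial genes 17 had positive differences (median 0.87) and 5 passed. The tight junction gene Cldn5 had 7.77, 8.10 and 8.37 in CD45+ cells, 6.51, 6.31 and 6.61 in CD45- cells, and 6.58, 6.73 and 6.73 in complete tumors (CD45+ minus complete 1.40, SE 0.20, limma adjusted p = 0.00679). Robo4 (1.37), Tie1 (1.37) and Sox18 (1.36) passed with calls that depended on single arrays, and the endothelial adhesion molecule Pecam1 did not pass (1.13, SE 0.41, limma adjusted p = 0.132). The list had 2 calls without complete tumor replicate 2, and 3 without complete tumor replicate 3 or CD45+ replicate 2. The mean level of the endothelial list was 7.83, 7.94 and 8.88 in CD45+ cells, against 7.49, 7.29 and 7.72 in complete tumors, with CD45+ replicate 3 the highest. Of 15 pericyte and smooth muscle genes 3 passed (median 0.49), among them Kcnj8 (1.69) and Abcc9 (1.66), subunits of a potassium channel of pericytes. Without complete tumor replicate 1 or CD45+ replicates 1 or 2 none of these passed, and 1 did without complete tumor replicates 2 or 3. Cdh1, the E-cadherin gene, was the 1 riser of 20 keratinocyte genes, near the 5.81% of all genes (2.21, SE 0.40, limma adjusted p = 0.0156), while Krt5 (-0.80) and Krt14 (-0.22) did not pass. The Cdh1 call was lost without CD45+ replicates 1 or 2 or complete tumor replicates 2 or 3.

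Lists of tumor cell and stromal genes had few calls in either direction, and their counts are read against 5.81% higher and 3.57% lower over all genes. Sox10, the neural crest factor that marks melanoma and glial cells, had 10.89, 11.05 and 9.95 in CD45+ cells, 11.78, 11.34 and 11.07 in CD45- cells, and 11.71, 10.59 and 10.74 in complete tumors. Its CD45+ and complete tumor arrays overlapped (difference -0.38, SE 0.38, limma adjusted p = 0.580). With Sox10 at such levels, values in the CD45+ arrays cannot be credited to leukocytes alone, and which cells gave them was not tested. Of 18 neural crest and dedifferentiated melanoma genes 0 rose and 1 fell (median 0.32). This was S100b, a calcium-binding protein of glia and melanoma, with 5.99, 6.57 and 7.88 in CD45+ cells, against 9.13, 8.76 and 9.89 in complete tumors (-2.45, SE 0.48, limma adjusted p = 0.0213), a call lost without complete tumor replicate 3 or CD45+ replicates 1 or 2. Pigment genes were dim throughout. Tyr, the rate-limiting enzyme of melanin, had 3.96, 3.95 and 3.54 in CD45+ cells, against 4.30, 3.80 and 4.51 in complete tumors (-0.39, SE 0.24, limma adjusted p = 0.346). Of 15 pigmentation genes Mlana (-1.84, SE 0.40) and Rab38 (-1.17, SE 0.27) fell and Rab27a (0.87, SE 0.21) rose (median of the list 0.01). The 2 falls were both seen in only 1 of the 6 fits that left out an array, that without CD45+ replicate 3, and the Rab27a call was lost in all 6.

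Collagen and matrix genes stood close to their level in complete tumors, with a mean of 10.92 ± 0.12 in CD45+ cells, 11.47 ± 0.37 in CD45- cells and 10.67 ± 0.37 in complete tumors (SD, n = 3 each). Col1a1, a chain of the main fibrillar collagen, had 12.15, 12.19 and 12.05 in CD45+ cells, 12.17, 12.43 and 12.95 in CD45- cells, and 11.59, 11.07 and 10.69 in complete tumors (CD45+ minus complete 1.01, SE 0.24, limma adjusted p = 0.0400). Col1a1 and fibronectin, Fn1 (1.48, SE 0.31), were the 2 rises among 24 genes (median 0.33), near the 5.81% of all genes. Neither passed without complete tumor replicates 2 or 3 or CD45+ replicates 1 or 2, only Fn1 passed without CD45+ replicate 3, and 4 genes passed without complete tumor replicate 1. The proteoglycan versican, Vcan, fell, with 9.76, 9.79 and 10.43 in CD45+ cells, against 11.68, 11.30 and 12.11 in complete tumors (-1.70, SE 0.28, limma adjusted p = 0.0109). The 17 fibroblast genes had a median of -0.32, between -0.44 and -0.17 with each array left out. Of them 2 rose, Dpp4 (1.49) and Lox (1.17), and 2 fell, Clec3b (-1.44) and Mfap5 (-1.34), and none of the 4 kept its call without every single array. Among 16 matrix proteases and inhibitors 1 rose, again near the 5.81% of all genes, the macrophage elastase Mmp12 (2.77, SE 0.31, limma adjusted p = 0.00274), and Mmp13 did not pass (2.06, SE 0.62). This list had 4 higher calls without complete tumor replicate 1 and 2 without CD45+ replicate 2. For 10 Schwann cell genes the median was 0.00, with Mal lower (-2.04) and Egr2 higher (1.65), and both calls were lost without CD45+ replicates 1 or 2.

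**Figure D3:**
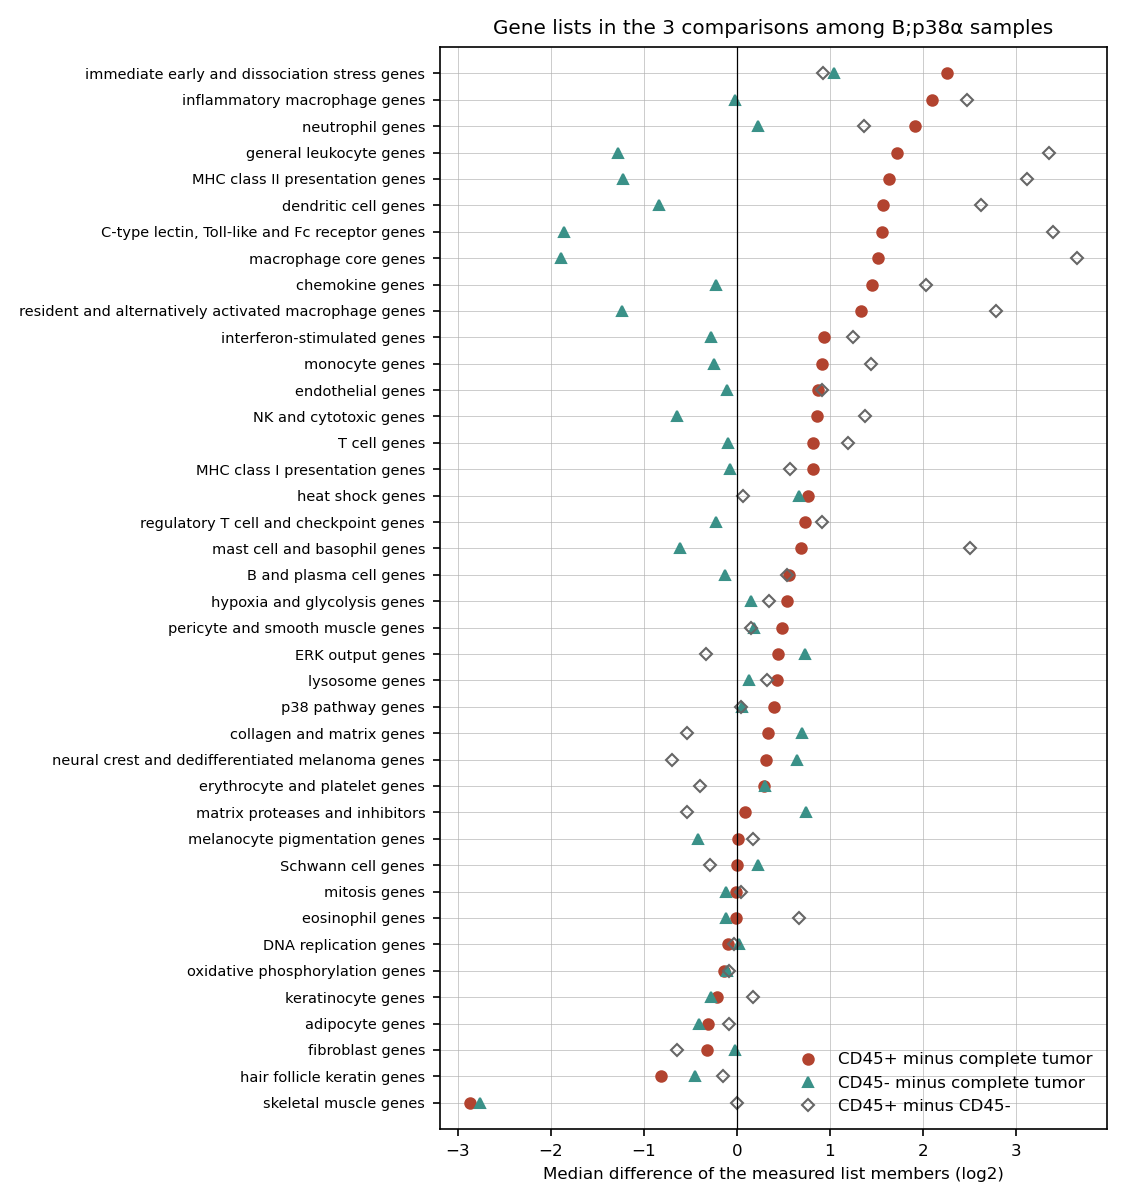
Median log2 difference (x axis) of the measured members of each of the 40 gene lists, ordered by CD45+ minus complete tumor (red circles), with CD45- minus complete tumor (green triangles) and CD45+ minus CD45- (open diamonds), all in B;p38α samples that the comparisons share. Immediate early genes have a median of 2.26 at the top and skeletal muscle genes -2.87 at the bottom, where the CD45- value is -2.76.

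Skeletal muscle genes had the lowest median of the 40 lists, -2.87, and all 20 had negative differences, but none passed, and the complete tumors differed widely among themselves. The mean level of the list was 5.30, 5.28 and 5.48 in CD45+ cells, between 5.38 and 5.55 in CD45- cells, and 5.52, 7.95 and 10.20 in complete tumors. Mylpf, a light chain of fast muscle myosin, had 4.45, 3.24 and 4.61 in CD45+ cells, against 5.75, 9.37 and 11.61 in complete tumors (-4.81, SE 1.25, limma adjusted p = 0.0501). The skeletal actin Acta1 had 6.35, 6.48 and 6.77 in CD45+ cells, against 6.34, 10.08 and 11.93 in complete tumors (-2.92, SE 1.17, limma adjusted p = 0.162). Complete tumor replicate 1 lay at the level of the CD45+ cells, and without it 13 of the 20 fell with a median of -4.20, against -1.53 and no call without complete tumor replicate 3. Of 15 adipocyte genes Car3 (-4.59, SE 0.93) and Adipoq fell and the lipase Lipe rose (1.53, SE 0.25), the last without a call when complete tumor replicate 3 was left out. Adipoq, the adipokine adiponectin, had 3.94, 3.90 and 4.52 in CD45+ cells, against 6.65, 5.46 and 6.62 in complete tumors (-2.12, SE 0.35, limma adjusted p = 0.0111). Car3, a carbonic anhydrase of fat and muscle, had 5.17, 4.90 and 5.07 in CD45+ cells, against 7.94, 8.77 and 12.19 in complete tumors, and lost its call without complete tumor replicate 2 or any single CD45+ array. None of the 12 hair follicle keratin genes passed (median -0.81), and complete tumor replicate 1 was the highest there, at 6.85 against 4.73 and 5.36.

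After Car3, the largest falls held copies of the major urinary proteins, pheromone carriers made chiefly in the liver. Mup19 had 5.08, 3.78 and 6.77 in CD45+ cells, 3.75, 7.22 and 4.10 in CD45- cells, and 9.59, 8.92 and 8.57 in complete tumors (CD45+ minus complete -3.82, SE 0.66, limma adjusted p = 0.0138). Mup22 (-3.27, SE 0.48), Mup9 (-3.04, SE 0.51) and Mup2 (-2.73, SE 0.36) fell likewise. The Mup genes are so alike in sequence that a probe may read several of them, so the 4 are not separate findings. Nkain2, which interacts with the sodium pump, had 4.64, 4.95 and 4.92 in CD45+ cells, against 7.52, 8.28 and 8.94 in complete tumors (-3.41, SE 0.34, limma adjusted p = 0.0020). Rab27b, a small GTPase of vesicle release, had 6.76, 6.51 and 7.57 in CD45+ cells, against 9.59, 10.22 and 10.13 in complete tumors (-3.03, SE 0.31, limma adjusted p = 0.00211). The membrane protease Mmp16 (-2.46, SE 0.24) and the RNA-binding Rbm46 (-2.77, SE 0.41) also fell. Calls of Mup19, Mup22, Mup9, Mup2, Nkain2, Rab27b, Mmp16 and Rbm46 held without any single array. Zim1 (-2.86), Gpr17 (-2.50), Olfr1034 (-2.67) and Olfr1033 (-2.53) passed but lost their call without 2 to 4 of the arrays in turn, complete tumor replicate 3 in each case.

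The remaining gene of the 15 largest falls, Vmn1r118, belongs to the type 1 vomeronasal receptors, a large family of pheromone receptors known from the vomeronasal organ. It had 7.67, 7.56 and 6.45 in CD45+ cells, against 10.19, 8.97 and 10.13 in complete tumors (-2.54, SE 0.42, limma adjusted p = 0.0119), and lost its call without complete tumor replicate 3. The family was looked at after its values were seen, so it is described without a test of its own. Of 201 measured Vmn1r genes 33 fell and 0 rose, against 3.57% of all genes that fell. All 33 lie on chromosome 7, where 96 Vmn1r genes were measured, and between the first and the last of them 56 of the 62 measured genes belong to the family. The differences of the 33 ran from -2.54 to -1.13 (median -1.91), while the median over all 201 was -0.05. Their mean level was 6.09, 6.04 and 5.68 in CD45+ cells, 6.79, 6.48 and 5.16 in CD45- cells, and 8.34, 7.03 and 7.93 in complete tumors. Many of these genes are close copies, and Vmn1r100 and Vmn1r148 share the same values on every array, so the 33 are not 33 separate measurements.

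**Figure D4:**
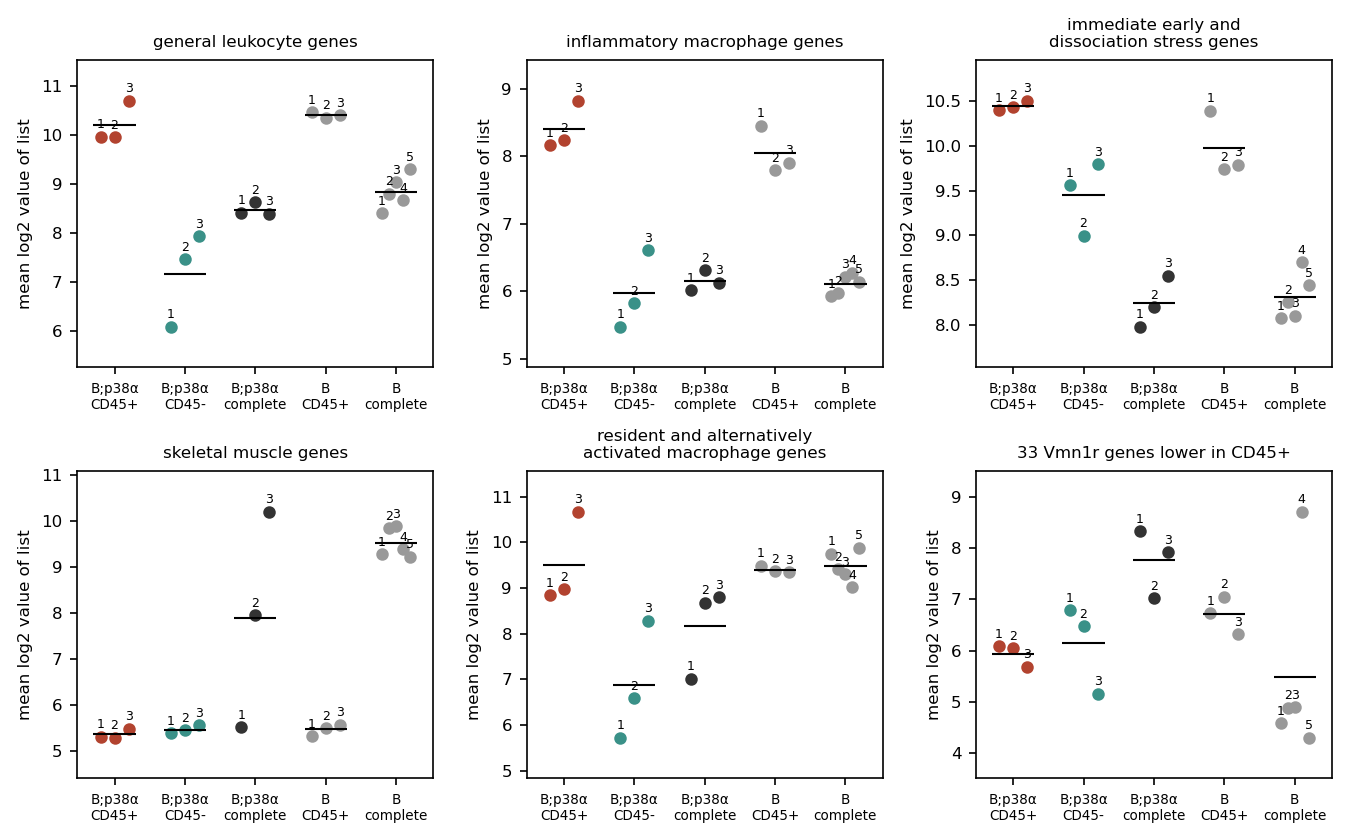
Mean log2 value (y axis) of 5 gene lists and of the 33 Vmn1r genes that fell, on each array (points with replicate numbers) of B;p38α CD45+, B;p38α CD45-, B;p38α complete, B CD45+ and B complete samples, with the group mean as a line. The 3 B;p38α CD45+ arrays lie above all B;p38α complete tumors for leukocyte, inflammatory and immediate early genes. Complete tumor replicate 1 lacks the muscle level of the others (5.52 against 7.95 and 10.20), and B complete replicate 4 is the 1 B complete tumor with a high Vmn1r level (8.72).

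The CD45- cells went through the same dissociation and were set against the same complete tumors, so the values of the comparisons are given side by side and no overlap between them is counted. CD45- minus complete tumor had 0 calls of 19504 by limma at an adjusted p under 0.05, whereas an unadjusted p below 0.05 was reached by 2286 higher (11.7%) and 1494 lower (7.66%) genes. In a single fit of all 6 groups of the study it had 471 higher and 274 lower, and without CD45- replicate 2 it had 1 higher and 7 lower. CD45+ minus CD45- had 709 higher (3.64%) and 131 lower (0.672%), and these counts depended on single arrays. They were 205 higher and 4 lower without CD45+ replicate 1, 270 and 7 without CD45+ replicate 2, and 310 and 8 without CD45+ replicate 3. Leaving out CD45- replicate 2 gave 258 and 7, and leaving out CD45- replicate 3 gave 615 and 42. For general leukocyte genes the median was 1.73 in CD45+ minus complete, -1.27 in CD45- minus complete and 3.36 in CD45+ minus CD45-, where 13 of 19 passed. Macrophage core genes had 1.52, -1.89 and 3.66 (14 of 19 passed in CD45+ minus CD45-), and MHC class II genes had 1.64, -1.22 and 3.12 (8 of 11). Immediate early genes had 2.26 in CD45+ minus complete, 1.04 in CD45- minus complete and 0.93 in CD45+ minus CD45-, where 3 of 25 passed. Heat shock genes had 0.77, 0.67 and 0.06 in the same order, with 0 of 10 passing in CD45+ minus CD45-. Inflammatory macrophage genes had 2.10, -0.02 and 2.48 (12 of 18 passed in CD45+ minus CD45-). Tnf stood 3.67 higher in CD45+ than in CD45- cells (limma adjusted p = 0.00329) and Il1b 4.20 higher (limma adjusted p = 0.00572), whereas Fos stood 0.93 higher (limma adjusted p = 0.219) and Dusp10 0.01 (limma adjusted p = 0.991). Skeletal muscle genes had -2.87, -2.76 and 0.00. Car3, Nkain2, Rab27b and Vmn1r118 differed between CD45+ and CD45- cells by 0.01, -1.03, -0.43 and -0.07, with limma adjusted p from 0.287 to 0.992. These genes come from the largest falls, picked by the same CD45+ and complete tumor arrays, so their values are no separate support.

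The same comparison in B tumors, in which melanocytes kept p38α, asked whether the contrast between selected cells and complete tumor differed with the genotype. B CD45+ minus B complete had 1852 higher (9.5%) and 1568 lower (8.04%) genes on 3 and 5 arrays. Without B CD45+ replicate 2 these were 1055 and 580, without B CD45+ replicate 3 they were 933 and 553, and without B complete replicate 3 the lower count was 951. All 15 genes of the largest rises had positive differences in B samples too. Hcar2 differed by 5.09 in B;p38α and 4.31 in B samples, and the 95% interval of the difference of these differences ran from -0.59 to 2.16 (limma adjusted p = 0.697). Tnf differed by 4.96 in B;p38α and 4.83 in B samples, with an interval from -1.23 to 1.499 (limma adjusted p = 0.956). For Ptprc the values were 1.63 in B;p38α and 2.00 in B samples, with an interval from -1.23 to 0.48 (limma adjusted p = 0.769). These intervals leave room for differences of more than 1 log2 unit in either genotype for Tnf, and they do not show that the genotypes were alike. By list, medians in B;p38α and B samples were 1.73 and 1.63 for general leukocyte genes, 2.10 and 2.02 for inflammatory macrophage genes and 2.26 and 1.55 for immediate early genes. Skeletal muscle genes had -2.87 and -4.50, and in B samples 20 of 20 passed. Resident and alternatively activated macrophage genes had 1.34 in B;p38α and -0.04 in B samples.

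No gene passed the test of the difference between the contrasts over 14 arrays (0% at a limma adjusted p under 0.05), while an unadjusted p below 0.05 was reached by 936 higher (4.8%) and 926 lower (4.75%) genes. With limma array weights 277 were higher and 255 lower. Without B complete replicate 4, 4 were higher and 45 lower, without B CD45+ replicate 1, 10 and 20, and without B;p38α CD45+ replicate 3, 1 and 1. Among genes at an unadjusted p below 0.01, none past the adjusted threshold (limma adjusted p = 0.494 each), the largest on the higher side were the amino acid transporter Slc38a4 (4.89), the ficolin Fcna (4.21), the fast myosin Myh4 (3.50) and the stathmin Stmn4 (3.42). Slc38a4 had 9.57, 9.69 and 8.42 in B;p38α CD45+ cells, against 3.96, 9.85 and 6.79 in B;p38α complete tumors. In B samples it had 4.84, 5.64 and 4.93 in CD45+ cells, against 6.51 to 10.05 (median 7.17) in complete tumors. The lower side held the immunoglobulin joining chain Jchain (-4.22), Vmn1r143 (-3.84), Vmn1r116 (-3.80) and Rab27b (-3.77). Jchain had 7.78, 7.06 and 10.75 in B;p38α CD45+ cells, against 8.47, 10.58 and 9.99 in B;p38α complete tumors, but 10.83, 11.84 and 11.84 in B CD45+ cells, against 6.17 to 10.52 (median 8.06) in B complete tumors. Rab27b had 7.93, 8.89 and 8.18 in B CD45+ cells, against 7.68, 6.96, 6.07, 11.01 and 6.26 in B complete tumors, where replicate 4 stood apart. The 33 Vmn1r genes had a median of -1.91 in B;p38α and 1.29 in B samples, with a mean level of 8.72 in B complete replicate 4 and 4.30 to 4.90 in the other B complete tumors. Of the 45 lower genes in the fit without that array, 35 were Vmn1r genes, a family with 201 of the 19504 genes tested and many close copies. That fit leaves out the B complete tumor with the highest Vmn1r level. The family was looked at after its values were seen, so this count is no test of a genotype difference. Y-linked levels also differed among the arrays of the contrast, and within the B genotype. They were high in B CD45+ replicate 1 and B complete replicates 1 and 4, and between 2.76 and 5.36 in the other B arrays. They were low in all 6 B;p38α arrays of the contrast, and their part in these differences was not tested.

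**Figure D5:**
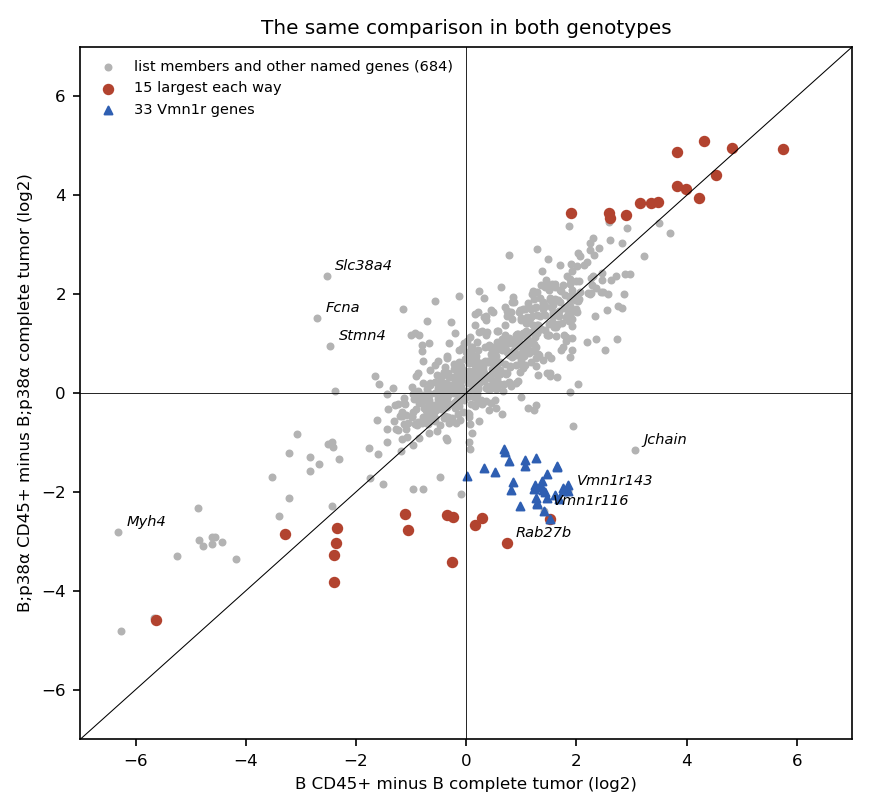
CD45+ minus complete tumor in B;p38α samples (y axis, log2) against the same difference in B samples (x axis, log2) for the members of the lists and the other named genes in grey, with the 15 largest differences each way in B;p38α in red and the 33 Vmn1r genes in blue. All 15 red rises are positive in both genotypes, while the Vmn1r genes and Rab27b are negative in B;p38α and near or above 0 in B, a contrast for which no gene passed the test (0 of 19504).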

How the data were processed

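Complete tumors and CD45-selected cells were profiled on mouse whole-transcript microarrays with biotin-labeled cDNA. The authors deposited RMA values on the log2 scale (RMA is named, with no version, by the submitters' processing notes). RMA corrects background, normalizes by quantiles and summarizes probes. No genome build of the array was found in the labels or headers. The table had 21244 rows without missing values. The platform annotation named 19570 rows by 1 gene symbol and 1674 by none, and where rows shared a symbol the brightest on average over the 20 arrays represented it, for 19504 genes in all.

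Groups came from the sample titles. Differences were tested with lmFit and eBayes of limma 3.58.1 (R 4.3.3) on the 2 groups compared, with Benjamini-Hochberg adjustment over all genes at 0.05. The genotype contrast used 14 arrays. Alternatives were all 6 groups or the 3 B;p38α groups in a fit, replicate number as a block, dim genes left out (under percentile 30), repeated quantile normalization, array weights, trended robust variance, every row, a difference of at least 1, CD45+ replicates 1 and 2 averaged, and each array left out. The fits were tested on simulated data.

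Members and the 40 lists (705 genes, 660 measured) were chosen with earlier results of these data known. The rule named Ptprc, Mapk14, cell type markers, the 15 largest non-overlapping calls each way, up to 4 passing and 2 failing members per list, and 4 genes each way for the genotype contrast. Arrays have no read depth, and their number limits the precision. Figures were drawn with matplotlib 3.10.9 (Python 3.11.15).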

Additional observations from a re-analysis of the deposited data

Results flagged for a closer look

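In B complete tumors, 37 of the genes described were checked for 1 array far from the other 4, and 3 had one, always replicate 4, where chance flags about 1 in 20 groups. That array had 10.82 for Vmn1r118, against 4.73 to 5.88 in the other B complete tumors. For Vmn1r143 it had 7.61, against 2.84 to 4.18, and for Vmn1r116 it had 7.13, against 2.42 to 3.61. These genes are close copies, so the 3 values are not independent. The mean of the Y-linked genes was also high in that array, 9.29, and in B complete replicate 1, 8.93, and its part in these values was not tested.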

How the results depend on the processing

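Whether the replicate numbers pair the samples is not given by the labels, and for CD45+ cells and complete tumors 3 arrays a group cannot settle it. B;p38α CD45+ replicate 2 had a Y-linked mean of 3.01 and B;p38α CD45- replicate 2 one of 8.81, so that number does not join samples of the same animal. Deviations of CD45+ cells and complete tumors with the same number correlated at 0.12, -0.01 and 0.16. Those with different numbers correlated at -0.165 to 0.125. With the number as a block, CD45+ minus complete tumor had 1010 higher and 491 lower calls, and the genotype contrast 3 and 29. The block gave 811 and 120 for CD45+ minus CD45-, 0 and 0 for CD45- minus complete, and 1041 and 607 for B CD45+ minus complete. In the genotype contrast the same block held arrays of both genotypes. Replicates 4 and 5 exist only among B complete tumors, so their blocks absorbed these arrays. The block counts of the genotype contrast and of B CD45+ minus complete therefore do not show the effect of pairing. Array weights gave 1832 higher and 1436 lower for CD45+ minus complete tumor, 277 and 255 for the genotype contrast, 6 and 8 for CD45- minus complete and 3716 and 3565 for B CD45+ minus complete. Averaging CD45+ replicates 1 and 2 gave 596 and 165 for CD45+ minus complete tumor, and asking for a difference of at least 1 left 326 lower. For CD45+ minus CD45-, the 131 lower calls became 281 with dim genes left out, 314 with array weights and 305 with a trended robust variance. CD45- minus complete tumor, with 0 calls, had 471 higher and 274 lower with all 6 groups in a fit, 6 and 11 after repeated quantile normalization, and 212 and 93 with a trended robust variance. Leaving out each array in turn gave 512 to 1120 higher and 125 to 686 lower for CD45+ minus complete tumor, and 0 to 10 and 0 to 45 for the genotype contrast. It gave 205 to 615 and 4 to 120 for CD45+ minus CD45-, 0 to 1 and 0 to 7 for CD45- minus complete, and 933 to 1879 and 553 to 1528 for B CD45+ minus complete. The causes were not tested. Of 226 genes named by the rule 136 passed, and 70 of these kept their call without each single array. In every alternative checked gene by gene, 68 kept it. The settings of every row and of a difference of at least 1 were not part of that check. A gene left out as dim was not counted as losing its call. No named gene changed direction while called. Of the list medians recomputed with each of the 6 arrays left out, with the block and after repeated quantile normalization, 312 moved by less than the spread between replicates and 8 by more. Leaving out 1 of 3 arrays can hardly move a group mean by more than that spread, so this tally does not show stability. The skeletal muscle median was -4.20 without complete tumor replicate 1 and -1.53 without complete tumor replicate 3. With 3 arrays a group, small differences of single genes were not detectable.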
